A study of Mus musculus with 13 samples.

Results

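The expression arrays of this study cover 2 epithelial cell populations that express Lgr5, one from the small intestine and one from the hair follicle. Genes that set both of them apart from the other intestinal cells were sought with a single contrast over all 13 arrays. GFPbright intestinal cells (4 arrays) and hair follicle cells (3 arrays) formed the Lgr5-high side, and intestinal GFPdim cells (3 arrays) and villus epithelium (3 arrays) the other side. The contrast is the mean of the 2 Lgr5-high group means minus the mean of the 2 other group means on a log2 scale. A gene was called shared-high when each Lgr5-high group lay above each of the other groups, in all 4 differences, and shared-low when all 4 differences ran the other way. The largest of the 4 p-values, adjusted over all genes, had to be under 0.05. Of 17097 genes measured, 294 (1.72%) were shared-high and 448 (2.62%) were shared-low.

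All mice carried the Lgr5-EGFP-ires-CreERT2 knock-in on a C57BL/6 background, in which EGFP and a tamoxifen-inducible Cre are expressed from the Lgr5 locus, and the labels name no other allele or treatment and no age. Every sample combined 3 mice. GFPbright and GFPdim cells were sorted by flow cytometry from dissociated crypts, and hair follicle cells from the skin, where the methods allow a longer digestion with trypsin. Whether the villus epithelium passed a sort is not clear from the sources used here. The array set holds no Lgr5-low cells from the skin, so in each comparison of the hair follicle with GFPdim or villus cells the tissue and the Lgr5 level cannot be told apart, and both Lgr5-high groups are set against the same 6 arrays.

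As background, Lgr5 is a receptor for R-spondins, secreted proteins that strengthen Wnt signalling, and it marks the dividing stem cells at the base of the intestinal crypt as well as stem cells of the hair follicle. Crypt cells lose Lgr5 as they move upward and pass through a zone of rapid division. They become absorptive enterocytes or secretory goblet, enteroendocrine or tuft cells, while secretory Paneth cells lie in the lower crypt. Hair follicle stem cells renew the follicle in cycles and belong to a keratinocyte lineage. Wnt, Notch, Hedgehog and BMP signals act on stem cells in both tissues.

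The labels were checked against the data first. Titles gave the groups, since the field for the Lgr5 level names the opposite level for GFPbright 2, GFPdim 2 and GFPdim 3, and names a high level for all villus samples. The hair follicle titles read GFPdim and the methods call these cells low for Lgr5, whereas the level field reads high. Within groups the arrays correlated at 0.978 to 0.994. GFPdim 1 had a lower 75th percentile of intensity (37.6) than the other 12 arrays (40.6 to 52.1). Chemosensory receptor genes (olfactory, vomeronasal and bitter), which these cells should lack, gave a background intensity of 7.9, and a group with a geometric mean at or below it has only an upper bound, so such folds are written as "at least".

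Lgr5 itself followed the titles, which checks the labels only, since the sorted groups were selected by EGFP expressed from its locus. The Lgr5 differences between the sorted groups, with their p-value, follow from that sort. So does the place of Lgr5 in the counts of shared genes below. Its intensities were 793.1, 532.8, 576.5 and 696.7 in GFPbright cells and 478.8, 539.7 and 687.1 in hair follicle cells, against 12.6, 66.1 and 14 in GFPdim cells and 6.8, 4.8 and 6.6 in villus. The lowest Lgr5-high array was thus well above the highest of the others, and the villus arrays were at background. The hair follicle level was not distinguishable from the GFPbright level (log2 difference -0.19, SE 0.43, adjusted p = 0.775). Lgr5 was 28.3-fold higher in GFPbright and 24.8-fold higher in hair follicle than in GFPdim cells, and at least 81.25-fold and 71.15-fold higher than in villus (adjusted p = 2.38e-05).

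Of the 5 markers of the Lgr5-high state, 4 met the rule, counting Lgr5 itself. Tnfrsf19 (Troy), a receptor of the TNF receptor family that is a Wnt target in crypts, read 284.4, 130.1, 154.4 and 143.6 in GFPbright, 52.5, 89.1 and 53.7 in hair follicle, 10, 15.6 and 10.6 in GFPdim and 10.5, 8.5 and 8.5 in villus (adjusted p = 0.000114). Igfbp4, a secreted protein that binds insulin-like growth factors, read 764.8, 859, 546.7 and 685.1, then 644.8, 1329.1 and 951.3, then 118.4, 75.3 and 66.8, and 9.4, 20.8 and 4.9 in the same order (adjusted p = 0.000224). Ephb3, an Eph receptor that positions crypt cells, read 226.7, 169.5, 159.2 and 168.6, then 191.6, 148.8 and 171.5, then 51.4, 71.6 and 66.9, and 13.7, 17.2 and 9 (adjusted p = 0.00116). In all 3 genes the 7 Lgr5-high arrays lay above the 6 others. Smoc2, a matricellular protein, went another way, with 1109.4, 900.3, 1030.1 and 1106.6 in GFPbright, 151.4, 147.8 and 161.5 in hair follicle, 204.4, 302.1 and 269.1 in GFPdim and 10.4, 17.9 and 14.4 in villus. Every hair follicle array was below every GFPdim array, so Smoc2 was not shared, although the hair follicle was 11.05-fold above villus.

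**Figure D1:**
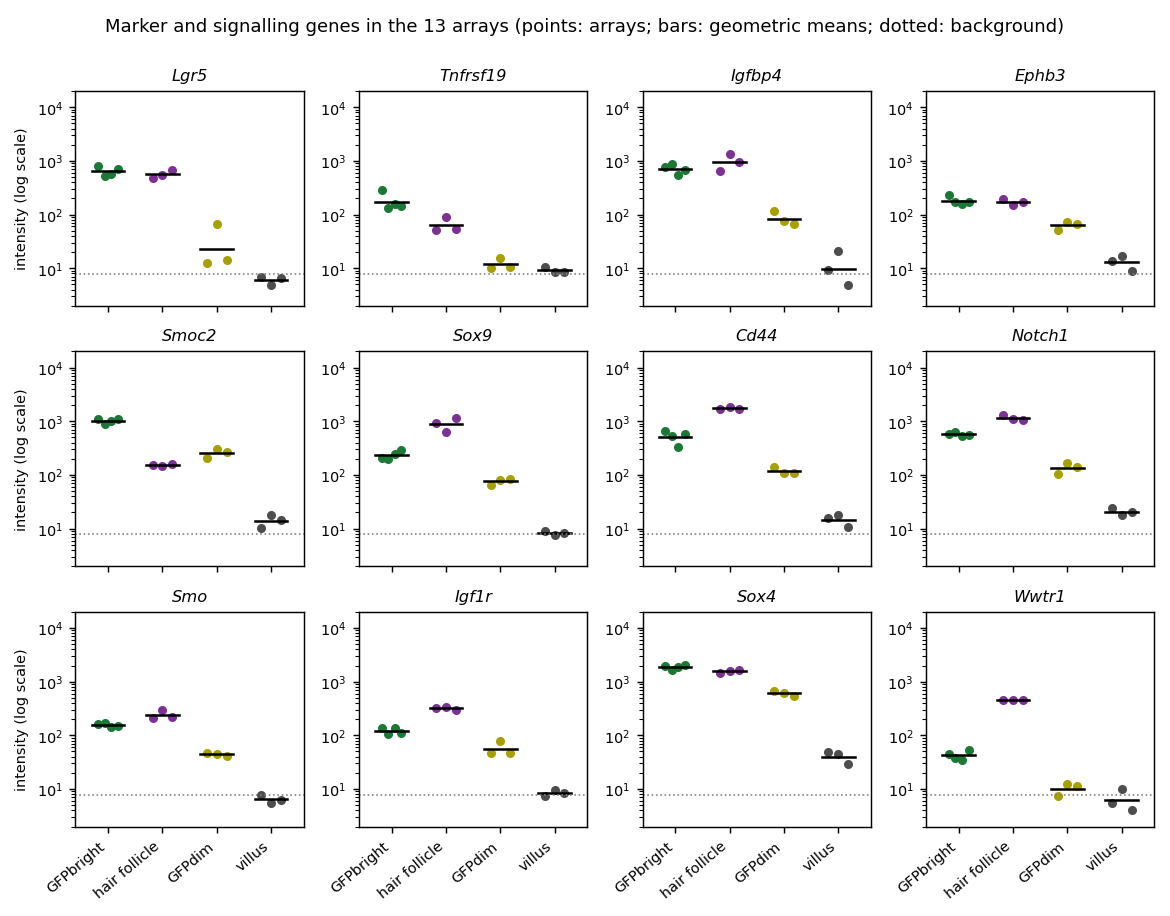
Intensity (log axis) of 12 genes in each of the 13 arrays, with 1 point per array, a bar at the geometric mean of each group and a dotted line at the background of 7.9. In Lgr5, Tnfrsf19, Igfbp4 and Ephb3 all GFPbright and hair follicle arrays lie above all GFPdim and villus arrays, whereas Smoc2 is lower in hair follicle than in GFPdim cells.

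The promoter windows of these genes, with 250 bases before and 50 after an annotated start, were taken from RefSeq (GRCm38.p6). Windows on 1 chromosome were left out of all counts. At least 1 window was then available for 245 of the 294 shared-high and 368 of the 448 shared-low genes, but none for Lgr5. The windows below are shown because the members move together and because TCF/LEF factors, the DNA-binding partners of beta-catenin, act at Wnt targets. Capitals mark any match on either strand to CTTTGAA, to CTTTGAT, to CTTTGTA or to CTTTGTT. The window of Tnfrsf19 at chr14:61037938-61038237 (minus strand) holds 1 match, while its other window, at chr14:61046806-61047105, holds none and is not printed. The Ephb3 window, also not printed, holds none. The window of Wwtr1, a transcriptional partner of TEAD factors, at chr3:57575861-57576160 (minus strand) is shown as one with a match and holds 1. That of Igfbp4 at chr11:99040994-99041293 (plus strand) holds none of these letters.
Tnfrsf19: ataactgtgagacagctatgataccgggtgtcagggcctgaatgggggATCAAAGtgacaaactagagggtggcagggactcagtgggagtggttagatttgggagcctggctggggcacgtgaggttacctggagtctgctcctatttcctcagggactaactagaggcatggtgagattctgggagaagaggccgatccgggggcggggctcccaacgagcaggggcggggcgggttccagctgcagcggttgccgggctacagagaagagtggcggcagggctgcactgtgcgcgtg
Wwtr1: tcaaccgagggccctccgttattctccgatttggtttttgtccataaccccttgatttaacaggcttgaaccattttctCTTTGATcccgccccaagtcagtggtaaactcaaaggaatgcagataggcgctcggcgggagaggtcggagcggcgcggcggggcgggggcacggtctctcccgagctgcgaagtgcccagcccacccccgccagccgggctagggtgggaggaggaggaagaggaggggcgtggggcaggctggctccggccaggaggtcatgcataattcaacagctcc
Igfbp4: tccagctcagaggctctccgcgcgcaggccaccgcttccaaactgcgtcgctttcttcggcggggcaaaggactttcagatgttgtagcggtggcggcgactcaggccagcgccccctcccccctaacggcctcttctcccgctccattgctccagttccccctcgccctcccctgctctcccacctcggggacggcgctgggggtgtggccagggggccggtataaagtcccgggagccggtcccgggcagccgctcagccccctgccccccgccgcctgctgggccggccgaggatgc
A match was present in 14.0% of 343 shared-high windows and in 16.5% of 472 shared-low windows, against 13.5% of the 16953 windows of all measured genes. GGAATG, the core of the TEAD motif, was in 13.4%, 16.9% and 13.2% of the same windows, and the E-box CACGTG in 8.75%, 6.36% and 8.72%. A match is a description of the letters and not of a bound site.

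The rule is far stricter than the contrast. The contrast by itself was called for 8746 genes (51.2%), of which 4725 (27.6%) were higher and 4021 (23.5%) lower on the Lgr5-high side. The group means of both Lgr5-high groups were above both others in 2954 genes (17.3%) and below both in 3399 (19.9%), whatever the p-value. Of the 4725 genes called higher, GFPbright was not above GFPdim in 835, and the hair follicle was not above GFPdim or not above villus in 1257. The 7 Lgr5-high arrays lay above the 6 others in 704 genes (4.12%) and below them in 749 (4.38%), and this held for 292 of the 294 shared-high and 443 of the 448 shared-low genes. At an unadjusted level of 0.05 for the largest p-value, 783 genes were shared-high and 835 shared-low.

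The step from GFPbright to GFPdim set the limit for most genes. It was the smallest of the 4 differences in 219 of the 294 shared-high and 349 of the 448 shared-low genes. The median of that smallest difference was 0.98 on the log2 scale in shared-high genes, of which 139 reached 1, and -1.23 in shared-low genes, of which 271 reached it. At the threshold, Slc48a1 (adjusted p = 0.0491) and Slc35c2 (0.0493) lay just inside and Slc66a1 (0.0503) and 1810046K07Rik (0.0507) just outside. Among the calls 39.6% were shared-high, and this share fell to 29.2% after quantile normalization (245 against 594 genes) and to 27.6% without GFPdim 1. Without GFPdim 3 there were 194 shared-high genes, and without the 3 samples with conflicting labels 198 shared-high and 214 shared-low genes were called, 135 and 210 of them in common with the 294 and the 448. That last setting leaves GFPdim 1 as the sole GFPdim array, which is then assumed to vary like the other groups, so a call lost there says little about the gene. The named genes that lost it were Igfbp4, Fmnl2, Evl, Dct, Fzd2, Dvl2, Bcl9l, Lfng, Tgfbr1, Tgfbr2, Boc, Epha4, Sema4c and Mex3a among the shared-high and Vil1, Ihh, Sema4a, Reg3g, Reg3b, Zbp1, Irf7 and Hnf4g among the shared-low genes.

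The genes with the widest shared-high margins, after Lgr5, were Fstl1, Igfbp4, Ccdc3, Acot1, Fmnl2 and Tnfrsf19. Fstl1, a secreted follistatin-like glycoprotein, read 109.3, 85.7, 30.1 and 95.5 in GFPbright and 122.8, 125.1 and 161.5 in hair follicle cells, while none of the GFPdim (8.2, 6.9 and 5.6) or villus arrays (5.1, 8.8 and 3.9) rose clearly above background. It was at least 9.01-fold higher in GFPbright and at least 16.9-fold higher in hair follicle than in GFPdim cells (adjusted p = 7.04e-05). Ccdc3, a secreted protein, read 120, 84.8, 93 and 63.3 in GFPbright and 773.6, 579.3 and 864.9 in hair follicle, against 8.2, 14.5 and 6.6 in GFPdim and 13.9, 11.2 and 8.1 in villus (adjusted p = 1.14e-05). Sesn3, a sestrin that restrains growth signalling, stood out for nearly flat levels on each side, with 122.7 to 193.4 in GFPbright, 106.9 to 144.2 in hair follicle, 26.6 to 35 in GFPdim and 28.8 to 44.9 in villus (adjusted p = 9.18e-05).

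Pls3, an actin-bundling plastin, read 150.2, 114.4, 103 and 132.7 in GFPbright, 539.4, 635.7 and 752.2 in hair follicle, 20.1, 26.5 and 27.8 in GFPdim and 5.3, 9.9 and 5.3 in villus (adjusted p = 1.57e-05). Evl, which promotes actin filament growth, ranged from 28.1 to 67.8, from 62.7 to 97.7, from 8.8 to 13.6 and from 6.9 to 13.2 in the same groups (adjusted p = 0.000672). Arhgef4, an exchange factor for small GTPases that binds APC, ranged from 35.4 to 50.6 and from 139.2 to 185.4 on the Lgr5-high side, from 9.6 to 10 in GFPdim and from 4.8 to 6.2 in villus (adjusted p = 1.09e-06). Afap1, an actin filament-associated protein, was also shared (adjusted p = 9.08e-06). The formin Fmnl2 had a wide difference but a large spread (adjusted p = 0.0207), with GFPbright 3 at 14.8 and the other GFPbright arrays at 82 to 116.4, and it lost its call without any of 5 single arrays (adjusted p from 0.0633 to 0.0979).

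Slco3a1, an organic anion transporter, ranged from 88.6 to 158.2 in GFPbright and from 51.5 to 152.4 in hair follicle, against 15.1 to 19 in GFPdim and 7 to 9 in villus (adjusted p = 0.000675). Slc7a2, a carrier of cationic amino acids, ranged from 56.8 to 86.4, from 63.3 to 217.3, from 12 to 20.8 and from 3.8 to 7.4 (adjusted p = 0.00219). Car12, a carbonic anhydrase on the cell surface, ranged from 64.4 to 116.3 and from 61.6 to 185.4 on the Lgr5-high side, and was at 16.2 to 20.7 in GFPdim and 4.5 to 4.9 in villus (adjusted p = 0.00112). Prss23, a secreted serine protease, reached 69.1 to 158.7 in GFPbright and 536.7 to 744.8 in hair follicle (adjusted p = 0.0014). Acot1 and Acot2, acyl-CoA thioesterases of nearly identical sequence whose signals may not be separable, were called at adjusted p = 0.02 and 0.0163, but GFPdim 2 was high for both (53.4 and 69) and the calls were lost without any of 5 (adjusted p from 0.058 to 0.112) and any of 3 single arrays (adjusted p from 0.0532 to 0.0929). Tgif2, a repressor of TGF-beta responses, was at 87 to 118.5 and 92.3 to 179 on the Lgr5-high side against 25.6 to 33.1 in GFPdim and 7.3 to 8.9 in villus, and Iffo2, an intermediate filament family member, at 86.6 to 166.7 and 964 to 1546.2 against 24.1 to 50.8 and 4.8 to 6.3. Tmem131l was also among the leading genes (adjusted p = 6.37e-05).

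Most of the shared-high genes, 261 of 294, belonged to none of the 37 gene lists used below. Counts within a list stand beside 1.72% shared-high and 2.62% shared-low over all genes. Wnt signalling was represented at several levels. Of 30 measured Wnt target and feedback genes, 8 were shared-high and 0 shared-low, with a median contrast of 1.64 (all genes -0.0046). They were Lgr5, Tnfrsf19, Ephb3, Cd44, Sox9, Myc, Apcdd1 and Zfp703. Cd44, a hyaluronan receptor, read 656.5, 535.2, 329.4 and 567.8 in GFPbright, 1704.5, 1842.1 and 1709.1 in hair follicle, 138.5, 109.5 and 111 in GFPdim and 15.7, 18.1 and 10.9 in villus (adjusted p = 3.98e-05). Sox9, a transcription factor of stem and progenitor cells in both tissues, read 210.8, 199.7, 241.3 and 297.6, then 922.3, 640.3 and 1159.1, then 64.8, 80.2 and 85.7, and 8.9, 7.5 and 8.3 in villus (adjusted p = 0.000133). In the probe sets used, both genes stepped down from hair follicle to GFPbright, GFPdim and villus with no overlap between the groups. Of the 4 Cd44 probe sets, 3 had group means in the shared-high order and 1 in the shared-low order. The general Wnt feedback gene Axin2 was not shared, with 526.3 to 628.2 in GFPbright but 70.3 to 95 in hair follicle, 95.4 to 132.3 in GFPdim and 55.7 to 96.4 in villus.

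Among 35 Wnt ligands and receptors, 3 were shared-high, all of them receptors. The Wnt receptor Fzd7 read 236.6, 220.8, 261.7 and 243.4 in GFPbright, 796.4, 939.6 and 793.1 in hair follicle, 52, 98 and 63.9 in GFPdim and 117.1, 119.9 and 94.2 in villus (adjusted p = 0.00167). Its relative Fzd2 ranged from 17.3 to 44.1 in GFPbright and from 363.3 to 502.8 in hair follicle, against 8.3 to 14.5 in GFPdim and 6.2 to 9.2 in villus (adjusted p = 0.00561). The R-spondin receptor Lgr4, a homologue of Lgr5, was higher by less, at 1051.8 to 1174 and 1247.1 to 1420.7 against 504.7 to 803.3 and 351.7 to 470.6 (adjusted p = 0.0254), and its call was lost without any of 4 single arrays (adjusted p from 0.0516 to 0.0806) or with the mean of its probe sets (0.826). Lgr6, the third receptor of this family, was at 23.2 to 76.7 in hair follicle arrays and at 8.6 to 10.8 in all intestinal arrays. Of 19 genes for TCF factors, beta-catenin and their partners, Dvl2 and Bcl9l were shared-high at adjusted p = 0.0217 and 0.0291. Each lost its call without any of 3 (adjusted p from 0.0587 to 0.0907) and any of 7 single arrays (adjusted p from 0.0518 to 0.119). Both also lost the call with the mean of their probe sets, and Bcl9l after quantile normalization (adjusted p = 0.857).

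Notch1, the receptor that keeps crypt progenitors from a secretory fate, was among the clearest shared genes. It read 578, 631.9, 532.3 and 556.9 in GFPbright, 1309.2, 1112.2 and 1050 in hair follicle, 104.3, 164.8 and 143.6 in GFPdim and 24.7, 18 and 20.1 in villus, that is 4.25-fold above GFPdim in GFPbright cells and 8.52-fold in hair follicle cells (adjusted p = 2.53e-06). Of 23 Notch pathway genes, Notch1 and Lfng, a glycosyltransferase that modifies Notch, were shared-high and 0 were shared-low, and the median contrast was 0.05. Lfng was near background throughout (8.7 to 12.7, 17.9 to 19.8, 5.5 to 7.6 and 4.9 to 7.2) and lost its call without GFPdim 3 or villus 3 (adjusted p = 0.0691 and 0.0524).

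In the Hedgehog pathway the signal transducer was higher on the Lgr5-high side and a ligand was lower. Smo, the membrane protein that passes the signal on, read 163.9, 166.5, 143.2 and 149.2 in GFPbright, 206.9, 302.7 and 215.7 in hair follicle, 46.9, 44.2 and 42.1 in GFPdim and 7.9, 5.5 and 6.3 in villus (adjusted p = 5.8e-06). It was 3.5-fold above GFPdim in GFPbright cells and at least 19.7-fold above villus. Ihh, the ligand made by intestinal epithelium, ran the other way, with 8.2 to 14 and 4 to 5.4 on the Lgr5-high side against 18.8 to 41 in GFPdim and 46.2 to 73.1 in villus (adjusted p = 0.00477). Boc, a co-receptor, reached 218.3 to 283.2 in hair follicle but 11.8 to 15.4 in GFPbright cells, against 8.3 to 8.8 in GFPdim, and lost its call (0.0279) without any of 6 single arrays (adjusted p from 0.0676 to 0.104). These 3 were the shared genes among 16 measured.

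Of 40 genes of the BMP and TGF-beta pathways, 4 were shared-high and 0 shared-low (median contrast 0.94). Besides Fstl1 these were the ligand Bmp7, with 25.3 to 32.4 in GFPbright, 45.3 to 65.6 in hair follicle, 11.2 to 16.4 in GFPdim and 7.2 to 10 in villus (adjusted p = 0.00424), and the TGF-beta receptors Tgfbr1 and Tgfbr2. Tgfbr1 ranged from 208.7 to 259.9, from 330.6 to 542.4, from 127.9 to 144 and from 84 to 110.8 (adjusted p = 0.0115, and 0.0632 without GFPdim 3). Tgfbr2 was shared at adjusted p = 0.0352 and lost its call without any of 8 single arrays (adjusted p from 0.0525 to 0.16). With the mean of their probe sets, Tgfbr1 and Tgfbr2 lost their calls too (adjusted p = 0.239 and 0.539).

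Of 16 genes of the insulin-like growth factor axis, 3 were shared-high and 0 shared-low. Igf1r, the receptor, read 140, 106.5, 134.4 and 112.8 in GFPbright, 318.7, 344.6 and 301.3 in hair follicle, 47.2, 77.6 and 46.2 in GFPdim and 7.5, 9.4 and 8.5 in villus (adjusted p = 0.00118). Irs1, the adaptor that links it to downstream kinases, read 30.2, 29.4, 33.3 and 28.5, then 147.3, 116.9 and 187.5, then 6.9, 12.2 and 12, and 12.1, 8.4 and 6.9 (adjusted p = 0.000674). With Igfbp4, a binding protein, as the remaining member, all 3 had no overlap between the 7 and the 6 arrays.

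Guidance receptors and ligands followed in smaller numbers. Ephb3 and Epha4 were shared-high among 17 Eph receptor and ephrin genes. Epha4 was at 14.4 to 35.8 in GFPbright and 233.4 to 341.3 in hair follicle against 8.5 to 14.2 in GFPdim (adjusted p = 0.0157), and its call was lost without any of 5 single arrays (adjusted p from 0.0506 to 0.0953). Of 35 axon guidance genes the semaphorins Sema3c, Sema5a and Sema4c were shared-high (adjusted p = 0.0463, 0.0463 and 0.0292) and Sema4a was shared-low. The 3 higher genes lost their calls without any of 11 (adjusted p from 0.051 to 0.229), any of 11 (0.0635 to 0.207) and any of 5 single arrays (0.051 to 0.144). Sema4a was even within each group, with 97.6 to 116.9 in GFPbright, 72.5 to 102.9 in hair follicle, 166.1 to 175.7 in GFPdim and 446.7 to 487.9 in villus (adjusted p = 0.00351).

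Of 21 progenitor genes for RNA-binding and SOX proteins, 4 were shared-high and 0 shared-low (median contrast 1.13). Sox4, a SOX factor of progenitor cells, read 1971.6, 1673.7, 1878 and 2003.4 in GFPbright, 1433.1, 1553.4 and 1681.5 in hair follicle, 662.8, 622.6 and 538.5 in GFPdim and 48.3, 44.9 and 29.8 in villus (adjusted p = 0.000188). Nap1l1, a histone chaperone, ranged from 516.3 to 716.3, from 455.8 to 866.4, from 176.8 to 307.1 and from 14.4 to 23.5 (adjusted p = 0.00379). Mex3a, an RNA-binding protein, ranged from 39.8 to 54.3, from 26.7 to 51.4, from 14.7 to 21.6 and from 16.1 to 17.1 (adjusted p = 0.00488). With Sox9 as the remaining member, 3 of the 4 had no called difference between hair follicle and GFPbright cells, namely Sox4 (log2 difference -0.27, SE 0.16, adjusted p = 0.187), Nap1l1 (0.05, SE 0.24, adjusted p = 0.896) and Mex3a (-0.17, SE 0.21, adjusted p = 0.57).

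Of 28 crypt base stem cell genes, 9 were shared-high (Lgr5, Fstl1, Igfbp4, Tnfrsf19, Cd44, Sox9, Ephb3, Mex3a and Tgif1) and 23 were called higher by the contrast. Of 32 hair follicle stem cell genes, Lgr5 and Sox9 were shared-high and 30 were called higher by the contrast. Over all genes 1.72% were shared-high and 27.6% were called higher by the contrast. Whether the counts of these lists differ was not tested. The crypt genes Ascl2, a transcription factor, and Olfm4, a secreted glycoprotein, had no shared level. Ascl2 was at 373.8 to 524.6 in GFPbright and 7.8 to 12.9 in hair follicle, and Olfm4 at 5182.7 to 6924.1 and 4.2 to 5.7. The reverse held for Lhx2, a follicle transcription factor, at 1027.6 to 1236.7 in hair follicle and 3.7 to 4.5 in GFPbright. Lrig1, a feedback inhibitor of growth factor receptors that marks stem cells in both tissues, came close to a call, with 545.1 to 790.4, 319.2 to 376.8, 190.1 to 239.3 and 17.3 to 30.8 (adjusted p = 0.0825).

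**Figure D2:**
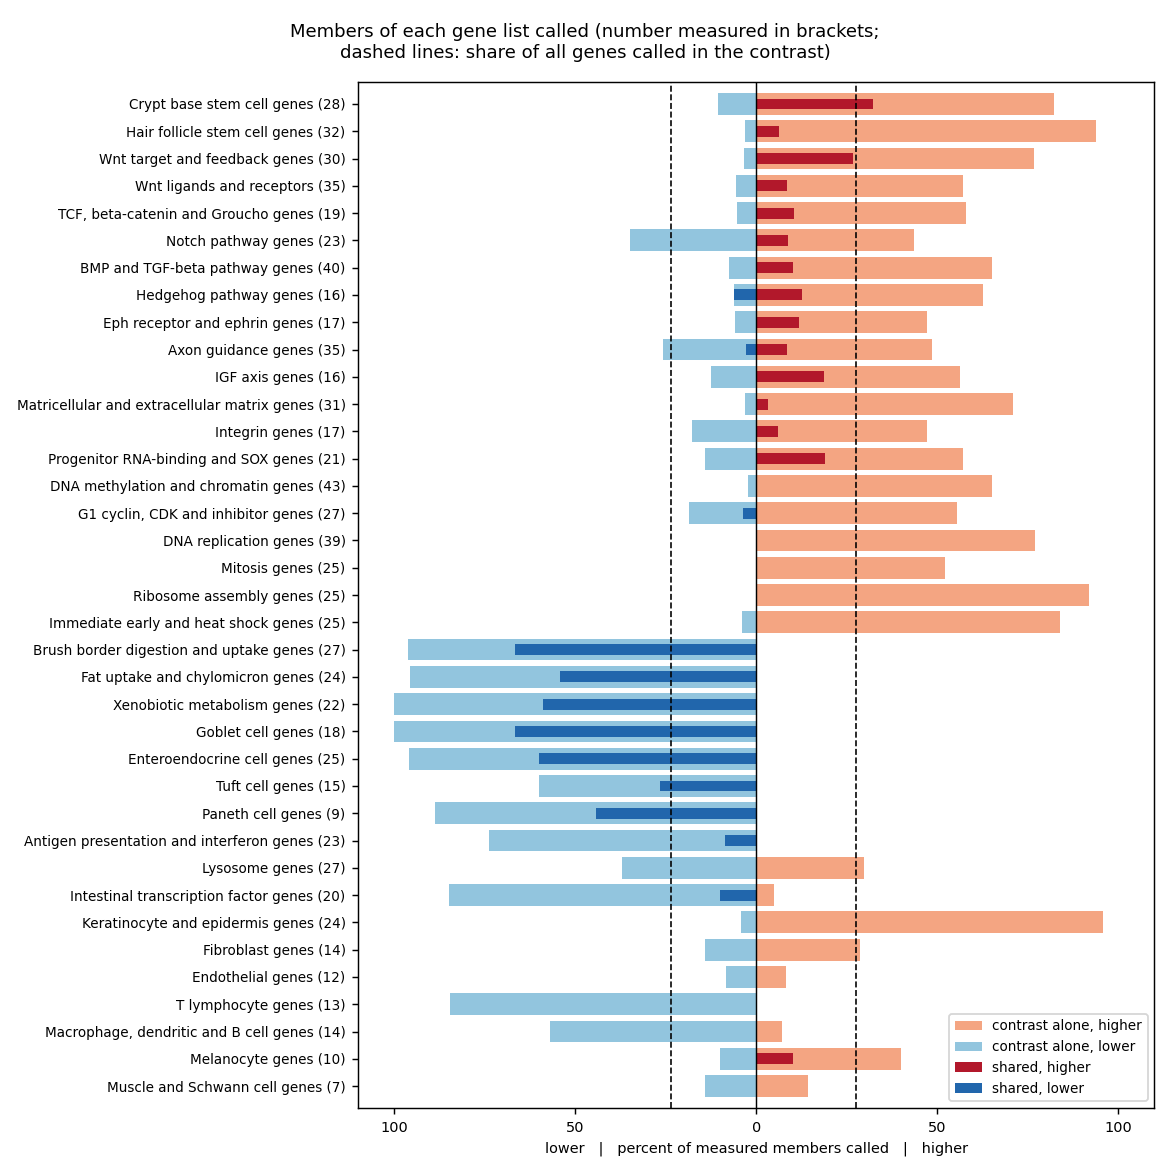
Percent of the measured members of each of 37 gene lists called higher (right) or lower (left) by the contrast (wide pale bars) and by the shared rule (narrow dark bars), with the number measured in brackets and dashed lines at 27.6% higher and 23.5% lower for all genes. Lists of replication, mitosis, ribosome assembly and keratinocyte genes have long pale bars and no dark bar, whereas the lists of differentiated intestinal cells have dark bars on the left.

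Several lists with many genes called higher by the contrast, against 27.6% of all genes, held no shared gene. As 1.72% of all genes were shared-high, 0 in lists of this size is near that share. Of 39 DNA replication genes, 30 were called higher by the contrast and 0 were shared-high, and the corresponding numbers were 13 and 0 of 25 for mitosis, 23 and 0 of 25 for ribosome assembly, 28 and 0 of 43 for DNA methylation and chromatin, and 21 and 0 of 25 for immediate early and heat shock genes. Mki67, a marker of dividing cells, read 1097.5, 1090.4, 1035.1 and 981.6 in GFPbright and 663.5, 800.3 and 776.5 in GFPdim, but 57.3, 344.2 and 15.7 in hair follicle and 11.6, 27 and 24.2 in villus. The hair follicle arrays differed among themselves by over an order of magnitude, with hair follicle 2 the highest, and all were below the GFPdim arrays. Dnmt1, the maintenance DNA methyltransferase, was at 515 to 674 in GFPbright, 78.6 to 233.5 in hair follicle, 238.9 to 367 in GFPdim and 18.8 to 28 in villus. The de novo methyltransferases had group means in the shared order but were not called, Dnmt3a with 147.4 to 276, 177.6 to 206.3, 89.6 to 166.3 and 115 to 134.9 (adjusted p = 0.573) and Dnmt3b with 47.5 to 80.3, 74.5 to 85.6, 28.8 to 46 and 7.2 to 19.3 (adjusted p = 0.281).

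Stress response genes were highest in the hair follicle. The summed level of the 25 immediate early and heat shock genes was 82830 to 107400 in hair follicle arrays, 17640 to 25230 in GFPbright, 21210 to 23360 in GFPdim and 9572 to 12460 in villus. Atf3, a stress-induced transcription factor, read 360.8, 184.9, 843.8 and 541.7 in GFPbright, 6087.4, 3810 and 6720 in hair follicle, 838.4, 714.6 and 805.1 in GFPdim and 173.6, 158.2 and 98.3 in villus. GFPbright cells were thus no higher than GFPdim cells for this gene. Ccn1, an immediate early matricellular gene that was shared-high, was likewise highest in the hair follicle but, unlike Atf3, lower in every GFPdim than in every GFPbright array (425.7, 319.6, 830.6 and 554.4, then 4122.5, 3215.2 and 5170.1, then 207.5, 230.7 and 207.6, and 40.9, 37.4 and 42.1), and the part of the stress response in its level was not tested.

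**Figure D3:**
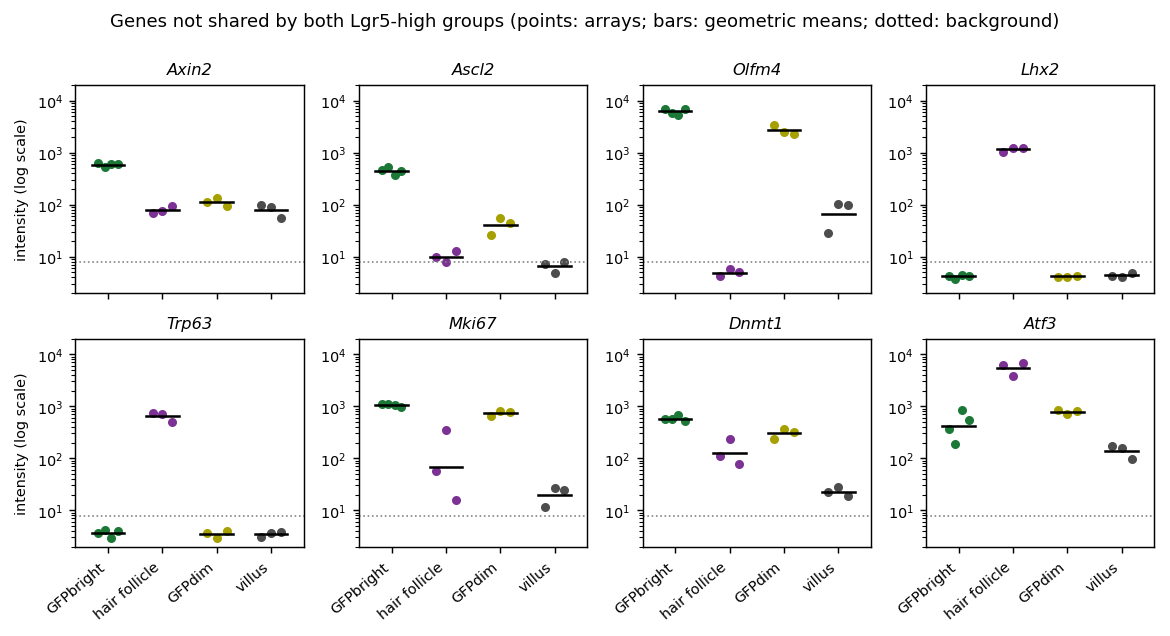
Intensity (log axis) of 8 genes in each of the 13 arrays, with 1 point per array, a bar at the geometric mean of each group and a dotted line at the background of 7.9. Axin2, Ascl2 and Olfm4 are low in the hair follicle, Lhx2 and Trp63 are at background in all intestinal arrays, Mki67 and Dnmt1 are lower in hair follicle than in GFPdim cells, and Atf3 is no higher in GFPbright than in GFPdim cells.

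Of the 294 shared-high genes, 159 were higher in hair follicle than in GFPbright cells, 10 were lower and 125 were not called, while over all genes 3321 (19.4%) were higher and 4980 (29.1%) lower in hair follicle cells. The widest gap among those described above was that of Boc (log2 difference 4.18, SE 0.17), followed by Fzd2 (3.74, SE 0.29), Epha4 (3.59, SE 0.27) and Wwtr1 (3.41, SE 0.27). Wwtr1 read 45.2, 38.4, 34.1 and 54.4 in GFPbright, 448, 448.5 and 458.4 in hair follicle, 7.3, 12.4 and 11.5 in GFPdim and 5.5, 10.2 and 4.1 in villus (adjusted p = 0.00028). The 10 genes lower in hair follicle than in GFPbright were Tnfrsf19 (-1.42, SE 0.27), Pla2g4a, 4933439C10Rik, Atg16l2, Zfp275, Ddb2, Ell3, Zfp318, Zkscan17 and Limk2. Pla2g4a, a cytosolic phospholipase, ranged from 198.9 to 245 in GFPbright, from 89.1 to 113.8 in hair follicle, from 50.3 to 60.3 in GFPdim and from 7 to 10.3 in villus. Ell3, an elongation factor, was at 108.4 to 114.6, 55.9 to 66.4, 31 to 41.4 and 17.9 to 30.3. In 222 of the 294 genes all groups were above background, and villus was at or below it in 72 and GFPdim in 20. Villus was below GFPdim in 261. For comparison, single villus arrays had 60.1% to 60.4% of all genes above background and GFPdim arrays 59.4% to 60.1%.

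**Figure D4:**
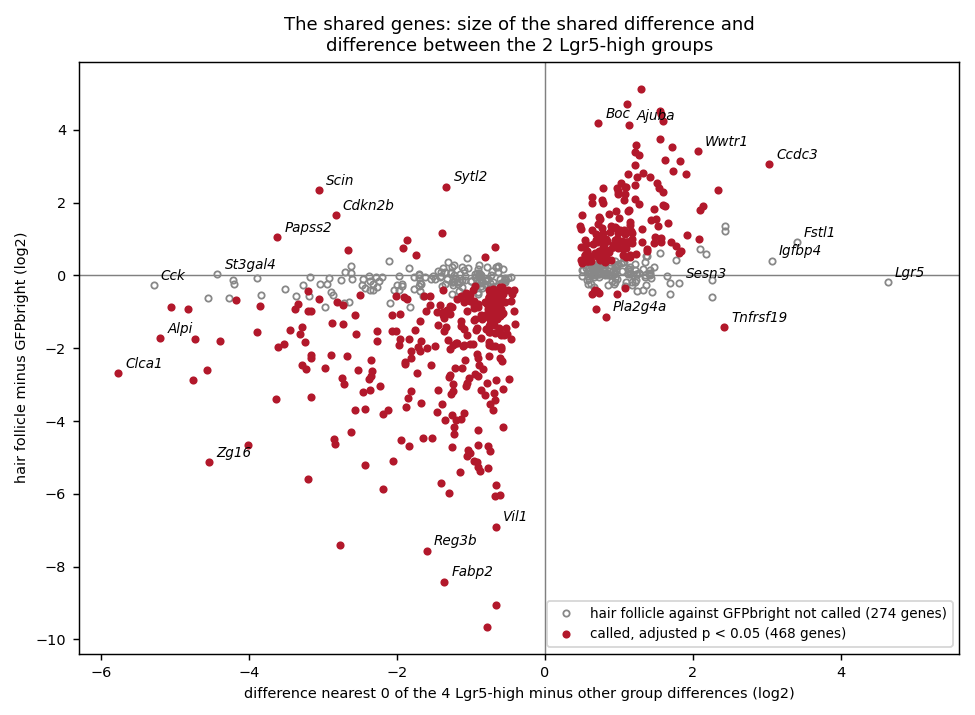
Each point is 1 of the 294 shared-high (right) or 448 shared-low genes (left), placed by the difference nearest 0 of its 4 differences (log2, horizontal) and by hair follicle minus GFPbright (log2, vertical), and filled where that second difference was called. Lgr5 lies farthest right near 0 on the vertical axis. Of the 448 shared-low genes, 288 are lower in hair follicle than in GFPbright cells, against 29.1% of all genes.

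The shared-low genes were led by products of differentiated intestinal cells. Clca1, a secreted goblet cell protein, read 18.7, 52.2, 38 and 33.7 in GFPbright and 5.5, 4.8 and 5.3 in hair follicle cells, against 1519.8, 1811.8 and 2223.6 in GFPdim and 4061.4, 3684.4 and 3711 in villus (adjusted p = 4.36e-08). GFPdim exceeded GFPbright by 54.7-fold and hair follicle by at least 231.6-fold. In these bulk samples fewer cells of a type and less RNA per cell cannot be told apart. The hair follicle was at or below background in 175 of the 448 genes and GFPbright in 59, and both Lgr5-high groups were above it in 270. For comparison, single hair follicle arrays had 60.2% to 60.6% of all genes above background and GFPbright arrays 58.7% to 59.6%. Of the 448 genes, 288 were lower in hair follicle than in GFPbright cells, 11 higher and 149 not called, and villus was below GFPdim in 59. Over all genes 29.1% were lower and 19.4% higher in hair follicle than in GFPbright cells.

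Of the 448 shared-low genes, 363 belonged to none of the 37 lists. Among those lists, that of brush border genes held the most shared-low genes. Of 27 brush border genes for digestion and uptake, 18 were shared-low, as were 13 of 24 genes for fat uptake and chylomicrons and 13 of 22 for xenobiotic metabolism, with 0 shared-high in each and median contrasts of -4.86, -3.33 and -4.80. Alpi, the intestinal alkaline phosphatase, read 12.2, 38.8, 31.6 and 24.1 in GFPbright, 7.9, 7.7 and 6.8 in hair follicle, 583.5, 1020 and 1240 in GFPdim and 6804, 7291.1 and 7127 in villus (adjusted p = 3.45e-07). Krt20, a keratin of differentiated gut epithelium, ranged from 12.5 to 28.1, from 4.5 to 6.7, from 456.6 to 649.9 and from 6208.7 to 6482 (adjusted p = 1.89e-07). The glucose transporter Slc2a2, the peptidases Enpep and Mep1b, the apolipoproteins Apoa1 and Apoa4, the fatty acid binding proteins Fabp1 and Fabp2 and the glutathione transferases Gsta4 and, outside the lists, Gsta2 were all shared-low. Fabp2, at 1115.6 to 1814.2 in GFPbright, 3.7 to 4.9 in hair follicle, 3670 to 3941.7 in GFPdim and 8889.3 to 9761.3 in villus (adjusted p = 7.04e-05), was still well above background in GFPbright cells. The structural gene Vil1, at 839.3 to 1015.6, 5.8 to 9.3, 1308.6 to 1498.8 and 6447.4 to 6687.4, was called by a small GFPbright to GFPdim step (adjusted p = 0.0163) that was lost without GFPbright 4, GFPdim 2 or GFPdim 3 (adjusted p from 0.0546 to 0.0854).

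Genes of the secretory lineages were shared-low in differing numbers. Of 18 goblet cell genes 12, of 25 enteroendocrine genes 15, of 15 tuft cell genes 4 and of 9 Paneth cell genes 4 were shared-low, and 0 were shared-high, with Guca2a counted in both the goblet and the Paneth list. Cck, the hormone cholecystokinin, read 5.9, 13, 8.2 and 7.7 in GFPbright, 8.1, 6 and 6.8 in hair follicle, 633.4, 493.2 and 578 in GFPdim and 427.4, 364.5 and 224.1 in villus (adjusted p = 5.98e-08). Gip, Sst, Sct and Tph1, the enzyme of serotonin synthesis, followed the same order of the 2 sides. The goblet cell proteins Zg16 (167.7 to 389.3, 5.8 to 10, 6065.8 to 6632.4 and 8344.3 to 9402.3) and Fcgbp (164.9 to 382.9, 94.5 to 337.8, 3735.1 to 5182.4 and 2923.7 to 3730) differed in the hair follicle, where Fcgbp was above background in all arrays. The tuft cell gene Rgs13 was at 3.6 to 7.4 and 3.8 to 4.2 on the Lgr5-high side against 14.7 to 27.7 and 67.3 to 96 (adjusted p = 0.000163), while Dclk1 was called (adjusted p = 0.0374) but lost its call without any of 9 single arrays (adjusted p from 0.0567 to 0.161). With the mean of its probe sets Dclk1 lost its call too. The lectins Reg4, Reg3g and Reg3b, which the Paneth list holds, were shared-low with Guca2a. Reg3g and Reg3b were highest in villus (3204.4 to 5471.5 and 6918.9 to 7458.4). Reg4 and Guca2a were highest in GFPdim cells (1603.4 to 1715.4 and 2128.4 to 2231.8). The paper places Paneth cells in the lower crypt. Whether the count for this list reflects the Paneth lineage was not tested. Reg3b (adjusted p = 0.0463) lost its call without any of 11 single arrays (adjusted p from 0.0563 to 0.207).

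**Figure D5:**
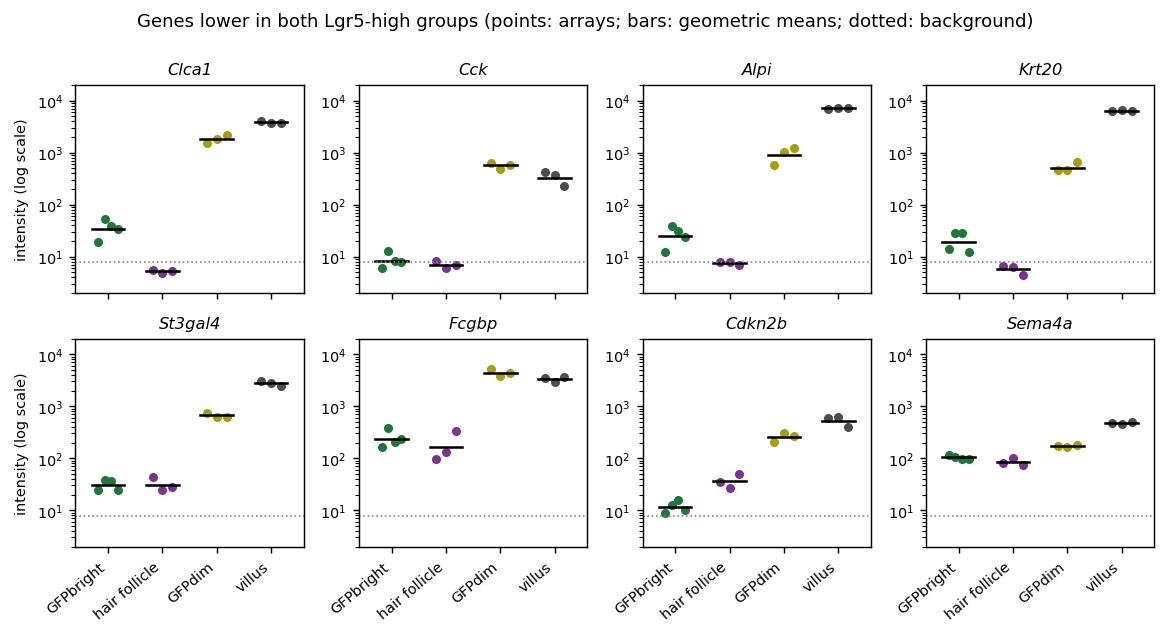
Intensity (log axis) of 8 shared-low genes in each of the 13 arrays, with 1 point per array, a bar at the geometric mean of each group and a dotted line at the background of 7.9. Clca1, Cck, Alpi and Krt20 are at background in the hair follicle, whereas St3gal4, Fcgbp, Cdkn2b and Sema4a stay above background on the Lgr5-high side and still lie below all GFPdim and villus arrays.

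Some shared-low genes had a measurable level in both Lgr5-high groups, and for St3gal4 that level was similar. St3gal4, a sialyltransferase, read 24.2, 37.5, 36.8 and 24.4 in GFPbright, 42.9, 24.1 and 28.5 in hair follicle, 739.1, 629.1 and 633.6 in GFPdim and 3119.7, 2842.3 and 2428.8 in villus (adjusted p = 8.37e-08). The 2 Lgr5-high groups were not distinguishable (log2 difference 0.04, SE 0.21, adjusted p = 0.909), and St3gal4 was 22.15-fold higher in GFPdim than in GFPbright cells. Papss2, which makes the sulfate donor of the cell, read 24.4, 54.4, 33.3 and 31.4, then 87.8, 48.1 and 84.8, then 871.9, 582.3 and 1315.2, and 3538, 4353.8 and 3678.6 (adjusted p = 8.44e-06). Of 27 G1 cyclin, kinase and inhibitor genes 1 was shared, which is near the 2.62% of all genes that were shared-low. This was Cdkn2b, the inhibitor p15 of cyclin-dependent kinases. It read 8.7, 12.8, 15.5 and 9.9 in GFPbright, 34.5, 27.1 and 50.1 in hair follicle, 205, 312.4 and 264.7 in GFPdim and 590.7, 626.9 and 404.5 in villus (adjusted p = 1.36e-05). Papss2 and Cdkn2b belong to the 11 shared-low genes that were higher in hair follicle than in GFPbright cells, with Scin, Capn9, Aplp1, Slc43a2, Kcnk6, Sytl2, Kdelr3, Tmem9b and Dock8. The widest of these gaps were those of Sytl2, a synaptotagmin-like protein of vesicle transport (2.44, SE 0.20), and Scin, an actin-severing protein (2.34, SE 0.35).

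Most transcription factors of the intestine were called lower by the contrast, and fewer met the stricter shared rule. Of 20 measured, 17 were called lower by the contrast, against 23.5% of all genes. Creb3l3, an activator of lipid genes, and Hnf4g, a nuclear receptor, were shared-low, against 2.62% of all genes. Creb3l3 ranged from 11.2 to 20.4, from 6.4 to 12.1, from 76.4 to 134.2 and from 880.3 to 982 (adjusted p = 7.16e-06), and Hnf4g from 23.5 to 36.3, from 3.1 to 3.7, from 67.3 to 142.5 and from 262.1 to 330.6 (adjusted p = 0.000206). Cdx2, the intestinal homeobox factor, was at 430.1 to 555 in GFPbright, 292 to 594.7 in GFPdim and 363.5 to 462.7 in villus, and at 8 to 9.2 in hair follicle. The letters AAAGTCCA, a core of the HNF4 motif, were searched on both strands and were in 4.45% of the shared-low windows, 0.875% of the shared-high windows and 1.24% of all windows. They can overlap the TCF/LEF letters. As members with such a match, the windows of Alpi at chr1:87101557-87101856 (minus strand) and of Clec2h, a C-type lectin, at chr6:128662135-128662434 (plus strand) are shown with the match in capitals.
Alpi: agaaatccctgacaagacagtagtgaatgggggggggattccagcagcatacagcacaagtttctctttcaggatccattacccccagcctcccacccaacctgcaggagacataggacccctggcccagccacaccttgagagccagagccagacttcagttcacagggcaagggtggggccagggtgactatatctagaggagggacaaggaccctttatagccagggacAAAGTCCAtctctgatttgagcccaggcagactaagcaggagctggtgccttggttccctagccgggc
Clec2h: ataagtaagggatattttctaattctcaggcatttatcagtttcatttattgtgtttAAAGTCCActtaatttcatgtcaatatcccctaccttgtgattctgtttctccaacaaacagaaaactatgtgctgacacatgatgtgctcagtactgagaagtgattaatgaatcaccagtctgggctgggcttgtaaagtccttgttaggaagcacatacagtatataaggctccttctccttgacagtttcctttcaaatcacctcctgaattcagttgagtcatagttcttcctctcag
Clec2h was at 10.1 to 26.2 in GFPbright, 3.6 to 5.7 in hair follicle, 319.5 to 340.5 in GFPdim and 3948.5 to 4549.5 in villus (adjusted p = 1.47e-07).

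The lineage of each population was plain in its markers. Krt14, a keratin of basal keratinocytes, was at 3947 to 7179 in hair follicle cells and at 4.4 to 6.4 in all intestinal arrays, and Trp63, their master transcription factor, at 487.5 to 731.9 and 2.9 to 4.1. Krt15, a follicle stem cell keratin, reached 4542.2 to 5823.7 in hair follicle and 8 to 39 in intestinal arrays. Epcam, an epithelial adhesion protein, was at 1476.4 to 2114.1 in hair follicle and 4394.1 to 6315.6 in the intestine. Of 24 keratinocyte and epidermis genes, 23 were called higher by the contrast, against 27.6% of all genes. In the same list 0 were shared-high, which is near the share of 1.72% over all genes.

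Markers of other cell types were followed in the same way. Over all genes 23.5% were called lower by the contrast and 2.62% were shared-low. Of 13 T lymphocyte genes, the counts were 11 and 0. Their summed level was 2062 to 3041 in villus arrays and 70.4 to 99.4 in the others, and Gzma, a protease of intraepithelial lymphocytes, was at 822.4 to 1129.6 in villus and 3.9 to 12.5 elsewhere. Fibroblast (14), endothelial (12), macrophage, dendritic and B cell (14) and muscle and Schwann cell genes (7) had 0 shared genes in either direction, as did 27 lysosome genes. With 1.72% of all genes shared-high and 2.62% shared-low, 0 in lists of this size is near the share over all genes. Summed levels of the fibroblast list were 889.4 to 1226 in hair follicle, 85.6 to 106.8 in GFPbright, 176.2 to 268.1 in GFPdim and 117.9 to 188 in villus. Of 31 matrix genes and 17 integrin and adhesion genes, Fstl1 and Cd44 were the sole shared members, against 1.72% of all genes shared-high. Of 23 genes for antigen presentation and interferon responses, Zbp1 (adjusted p = 0.0053) and Irf7 (0.0163) were shared-low, and both were mainly high in villus (215.9 to 379.8 and 164.2 to 255.3, against 13.4 to 19 and 17.2 to 24.7 in GFPdim). Irf7 lost its call without hair follicle 2 or GFPdim 2 (adjusted p = 0.0649 and 0.0769).

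Dct, a pigment enzyme of melanocytes, was shared-high, with 26.6, 15, 27.2 and 33.6 in GFPbright, 147.8, 407.5 and 97.3 in hair follicle, 6.7, 7.3 and 6.6 in GFPdim and 5.3, 10.5 and 7.3 in villus (adjusted p = 0.0228). It lost its call without any of 7 single arrays (adjusted p from 0.0503 to 0.118) and with an offset of 16 before the log (0.499). None of the other 9 melanocyte genes was shared. The summed level of the 10 was 768.6 to 988.3 in hair follicle, 95.5 to 110.3 in GFPbright, 116.9 to 129 in GFPdim and 73.3 to 81.3 in villus. In GFPbright arrays Tyr (3.9 to 5.3), Tyrp1 (3.7 to 4.2), Mlana (4.3 to 5) and Mitf (5.3 to 7.8) were at background, whereas in hair follicle arrays Tyrp1 reached 16.4 to 118.8 and Mitf 298.7 to 631.6, with hair follicle 2 the highest for Dct and Tyrp1. The part of pigment cells in the hair follicle level of Dct was not tested.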

How the data were processed

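Total RNA of the 13 samples was hybridised to Affymetrix HT MG-430 PM arrays. The authors summarised the probes with RMA-sketch in Affymetrix Power Tools (version not given in the sources used here), and the deposited values are normalized intensities on a linear scale, of which log2 was taken here with no offset. Precision is set by how many arrays each group has. Of 45141 probe sets, 28898 had 1 gene name in the platform annotation, 551 several and 15692 none. Each of 17097 genes was represented by its probe set with the highest mean, since 7180 had more than 1.

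A linear model over the 4 groups was fitted with limma 3.58.1 in R 4.3.3, and p-values were adjusted over all genes by the Benjamini-Hochberg method. For a shared call the largest of the 4 p-values was adjusted, and the p-values printed for shared genes are these. The background of 7.9 is the 95th percentile of 84 receptor probe sets. Scripts were tested on simulated data. Figures were drawn with matplotlib 3.10.9.

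Groups came from the titles and, for hair follicle, the source label. The methods call the replicates biological. A code in the titles, which the labels do not define, is shared by a GFPbright and a GFPdim sample in 3 cases, whose deviations from the group means correlated at 0.291, 0.451 and 0.32. A hair follicle sample carried 1 of these codes and correlated at 0.103 with its GFPdim and 0.013 with its GFPbright partner. Named genes were the 5 markers, the 25 genes per direction with the largest smallest difference and no overlap of arrays, up to 4 shared genes per direction and list, and lineage markers. Further genes were named after their values were seen. The members and the 37 lists (880 genes) were chosen with earlier results of these data known.

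The alternatives were quantile normalization, an offset of 16, a filter on dim genes, the mean of probe sets, an intensity trend, the title code as a random block, and leaving out single arrays or the 3 with conflicting labels.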

Additional observations from a re-analysis of the deposited data

Results flagged for a closer look

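Among 103 named genes with 4 GFPbright arrays to compare, 5 had an array far from the rest by Dixon's criterion, which chance alone gives in about 1 of 20. GFPbright 3 read 14.8 for Fmnl2 (the others 82 to 116.4), 64.4 for Car12 (108.4 to 116.3) and 17.3 for Fzd2 (38.8 to 44.1). GFPbright 1 read 8.7 for Lfng (12.5 to 12.7) and 98 for Fabp1 (243 to 283.5).

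Probe sets without a single gene name were not part of the comparisons. Among these 16243 probe sets, 105 were shared-high and 99 shared-low when p-values were adjusted over all 45141 probe sets.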

How the results depend on the processing

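Of 95 named genes with a shared call, 67 were called in all 20 alternatives, 28 lost the call in at least 1 and 0 changed direction, while Krt15 and Cdh17 passed under an alternative only. Without the 3 samples with conflicting labels, which leaves a single GFPdim array (GFPdim 1) whose spread is assumed to be that of the other groups, there were 214 shared-low genes, and the arrays did not overlap for 1581 genes above and 1140 below, because fewer arrays had to be separated; 22 named genes lost their call. Leaving out single arrays gave 4458 to 4739 genes called higher and 3806 to 4112 lower by the contrast, 194 (without GFPdim 3) to 298 shared-high, 322 (without GFPdim 3) to 531 (without GFPdim 1) shared-low, and 720 to 982 and 759 to 1200 (without GFPdim 1) genes with no overlap. With the undefined title code as a random block, which uses the pairing, 345 genes were shared-high and 504 shared-low, among them all 294 and 448. The cause of these shifts was not tested. Of 666 list medians recomputed, 96 moved by more than 1 SD. Genes near background have bounds only.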

Other observations

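A few further gene groups were drawn up after the values were seen, so their counts are descriptions. All of these counts stand beside 1.72% shared-high and 2.62% shared-low over all genes. Of 60 primary cilium genes, the cilium being the organelle that Hedgehog signals pass through, 15 were shared-high and 0 shared-low (median contrast 0.86). Wdr35, a subunit of the transport complex inside cilia, read 21.1, 21.4, 21.2 and 19.5 in GFPbright, 54, 72 and 58.3 in hair follicle, 6.9, 7.5 and 7.7 in GFPdim and 5.4, 4.9 and 5.3 in villus, and Ift122 of the same complex ranged from 21.8 to 31.2, from 55.2 to 71.6, from 9.7 to 11.1 and from 7.1 to 9.2.

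Of 27 Hippo pathway genes, 5 were shared-high, namely Wwtr1, Tead2, Ccn1, Ajuba and Yap1, and 0 were shared-low. Tead2, a TEAD factor, ranged from 22.6 to 38.4 in GFPbright, from 37.1 to 41 in hair follicle, from 8.5 to 13.1 in GFPdim and from 6.3 to 11.7 in villus.

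Of 62 genes for protein folding in the endoplasmic reticulum and transport to the Golgi, 21 were shared-low and 0 shared-high (median contrast -0.97). Sec23a, a coat protein of transport vesicles, ranged from 108.6 to 188.2, from 131.8 to 172.9, from 283.6 to 458.9 and from 1478.6 to 1781.6 in the same order of groups. Dnajc3, a chaperone partner, ranged from 163.6 to 261.6, from 179.9 to 205.2, from 476.5 to 638.5 and from 511.9 to 521.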
